A study of Mus musculus with 4 samples.

Results

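Genes of autophagy and of the lysosome were followed in muscle satellite cells as a list of 38, chosen by name for their place in the pathway, and all 38 were present among the 27998 genes of the count tables. The choice was made with earlier results of these data known. Satellite cells, the resident stem cells of muscle, had been isolated from hindlimb and sorted as ITGA7+ and VCAM1+ cells that lacked blood, endothelial and Sca1 lineage markers, and each strain gave 1 single-cell 3′ RNA-seq library from 2 pooled mice. The healthy strains were B10 (C57/Bl10ScsSn, 15 weeks of age) and DBA (DBA/2, 13 weeks). The dystrophic strains carry the mdx mutation of the dystrophin gene on each of these backgrounds, mdx (C57BL/10ScSn-Dmdmdx, 11 weeks) and D2-mdx (D2.B10-Dmdmdx, 14 weeks), so age differed along with genotype. With 1 library per strain there was no spread between replicates to test against. All intervals below are 95% intervals of counting error only, and a difference between libraries cannot be told apart from a difference between the pools of mice, their ages or the preparations.

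Macroautophagy encloses cytoplasm in a double membrane, the autophagosome, and delivers it to the lysosome for digestion. The ULK kinase complex starts the process, the class III PI3-kinase complex marks the growing membrane, and a ubiquitin-like conjugation system attaches the small ATG8 proteins (the LC3 and GABARAP genes) to it, where they bind cargo receptors such as p62 (Sqstm1). In resting satellite cells this turnover is known to be needed to keep the cells quiescent and able to regenerate muscle. TFEB, TFE3 and FOXO3 are transcription factors of autophagy and lysosome genes. Levels of mRNA do not measure the flow of material through the pathway.

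TFEB and TFE3 bind the E-box CACGTG, most often within the longer TCACGTGA, and their known sites lie close to gene starts. RefSeq promoters (GRCm38.p6, 250 bases before to 50 bases after the start) were given for 31 of the 38 genes, all but Rb1cc1, Pik3c3, Becn1, Atg12, Atg16l1, Map1lc3a and Bnip3l. CACGTG on either strand was found in 6 of the 31, or 19.4%, against 8.09% of 27025 genes in the same table, and the 6 were Lamp1, Atg3, Atg5, Atg7, Atg14 and Bnip3. The windows below show the lysosomal membrane gene with the most copies and 3 genes of autophagosome formation, with the E-box in capitals. The Lamp1 windows are chr8:13159088-13159117 and chr8:13159121-13159150, the Atg3 window is chr16:45158746-45158775 and the Atg7 window is chr6:114670952-114670981, all on the + strand, and the Atg14 window is chr14:47568418-47568447 on the - strand. The Atg7 and Atg14 windows lie inside the annotated genes (chr6:114643097-114860614 and chr14:47540893-47570649), at RefSeq starts other than the outermost.
Lamp1 upstream: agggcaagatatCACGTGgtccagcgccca
Lamp1 near the start: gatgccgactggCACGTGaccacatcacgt
Atg3: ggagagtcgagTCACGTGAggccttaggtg
Atg7: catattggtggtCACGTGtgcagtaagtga
Atg14: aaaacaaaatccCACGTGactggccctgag
Lamp1 held 4 copies, and Atg3 alone among the 31 held TCACGTGA (3.23%, against 1.12% of all genes), which contains the shorter E-box. The full CLEAR palindrome, TCACGTGA with G before and C after it, and the forkhead motif TGTTTAC were in 0 of the 31 windows, against 0.37% and 4.05% of all genes. The AP-1 motif TGANTCA was in 1 window, that of Tfe3 (3.23%, against 8.97%). TGACNNNGC, which NRF2 binds, was in 5 (16.1%, against 14.0%), those of Ulk2, Atg13, Map1lc3b, Rab7 and Vcp. The genes with the E-box did not move one way: their log2 ratios in mdx over B10 ran from -0.53 for Atg7 to 0.58 for Bnip3, with a median of 0.15, and the median of the other 23 genes with a promoter and a tested ratio was -0.02. In D2-mdx over DBA the corresponding medians were 0.01 and -0.17. These matches are letters in a window and no binding was measured.

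Between 3279 and 6313 cells per library passed the filters, with a median of 6666 to 10434 UMIs (unique molecular identifiers, each a counted RNA molecule) per cell and 3 to 8 barcodes shared by any pair of libraries. By their marker genes 4419 of these cells were myogenic in B10 and 4814 in mdx, against 2702 in DBA and 4167 in D2-mdx. Pax7 stood at 907, 424, 696 and 426 CPM (UMIs of a gene summed over the cells and scaled to the same total in every library) in the same order, and Dmd at 325, 120, 287 and 94.1 CPM, low in both libraries labelled dystrophic. Myogenic cells were told apart into kinds by clustering: MuSC-like cells (the bulk, 65.1% to 93.0% of each library), cycling cells, differentiating cells with Myog, DMD-enriched cells with Postn and collagen genes (20.1% of mdx and 12.7% of D2-mdx cells, but 16 cells in B10 and 12 in DBA), and interferon-high cells named immunomyoblasts. RNA of other cells was also higher in the dystrophic libraries. Summed markers of white blood cells stood at 3.33, 27.5, 11.8 and 96.2 CPM in the myogenic cells of the libraries in this order, with 1 of 9 markers at 0 in B10 and none in the others, and those of mature myofibres at 41.1, 137, 33.1 and 343 CPM. Erythrocyte RNA stood at 276, 461, 298 and 930 CPM in myogenic cells and at 24.7, 945, 327 and 1358 CPM in MuSC-like cells. The part of this RNA in the results below was not tested. Immediate-early genes, which enzymatic dissociation induces, took 47173, 36833, 38556 and 36323 CPM.

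The 38 genes together took a larger share of the UMIs in each dystrophic library than in its control. Summed over all myogenic cells B10 stood at 2633 CPM (2617 to 2649) and mdx at 3083 (3066 to 3100), while DBA stood at 2473 CPM (2455 to 2491) and D2-mdx at 2762 (2744 to 2779). The log2 ratio of mdx over B10 was 0.23 (0.22 to 0.24) and that of D2-mdx over DBA was 0.16 (0.15 to 0.17). In MuSC-like cells alone both were larger, 0.32 (2654 against 3306 CPM) and 0.28 (2496 against 3034 CPM). CPM is a share: cells held a mean of 23.8, 25.8, 27.6 and 23.0 UMIs of the 38 genes in B10, mdx, DBA and D2-mdx, and 9030, 8374, 11160 and 8346 UMIs in all, so that the D2-mdx cells had a larger share but fewer molecules than the DBA cells. In MuSC-like cells the means were 23.4, 20.2, 27.2 and 18.9 UMIs, so there both dystrophic libraries held fewer molecules of these genes per cell than their controls, at a larger share. When cells with as few as 500 and with more than 5000 detected genes were admitted, the D2-mdx over DBA ratio was 0.02.

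The sum did not speak for most of its members. A gene was counted where either library of the pair reached 10 CPM. Of 36 such genes, 5 were higher in mdx than in B10 by at least 0.5 on the log2 scale and 1 was lower, where 13.2% of all 8471 tested genes were that much higher and 17.4% that much lower. In D2-mdx over DBA 4 of 36 were higher and 5 lower, against 15.9% and 21.6% of 8501 genes. The shares of the list, 13.9% and 2.78% in mdx and 11.1% and 13.9% in D2-mdx, were thus near or below those of all genes. The median of the 36 was 0.04 in mdx over B10 and -0.12 in D2-mdx over DBA, where the medians of all tested genes were -0.04 and -0.07. Hence in D2-mdx the sum was higher while the median gene was lower. In MuSC-like cells 5 of 36 were higher and 0 lower in mdx over B10 (7.65% and 13.6% of all genes), and 5 higher and 2 lower in D2-mdx over DBA (9.37% and 15.3%), with medians of 0.10 and 0.00 against -0.08 and -0.09 for all genes. With the cell filter relaxed as above, 12 of the genes were past the fold downward in D2-mdx over DBA. The share of all genes at that setting is not given here, so this count is not read as particular to the list. Optn, a receptor for ubiquitinated cargo, and Tfeb were below 10 CPM everywhere (1.91 to 3.73 and 6.20 to 9.60 CPM) and were not counted.

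**Figure D1:**
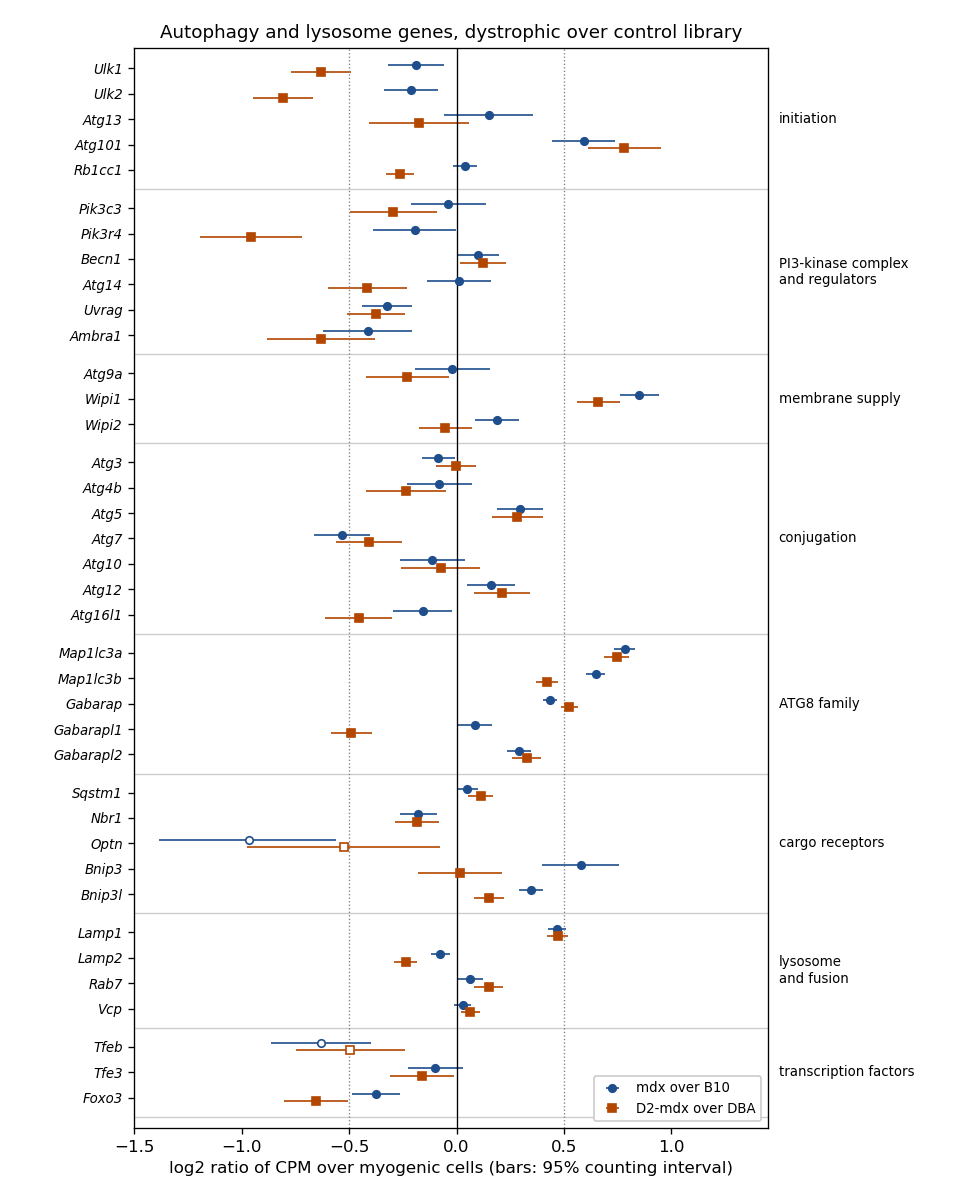
Log2 ratio of CPM over all myogenic cells for each of the 38 genes, grouped by role, in mdx over B10 (blue circles) and D2-mdx over DBA (orange squares), with 95% counting intervals, open symbols for genes below 10 CPM and dotted lines at 0.5 in size. The ATG8 genes other than Gabarapl1 lie to the right in both pairs. In D2-mdx over DBA, Ulk1, Ulk2, Pik3r4, Ambra1 and Foxo3 lie left of -0.5, as does the open symbol of Optn.

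The ATG8 family carried most of the difference in the sum. These 5 genes encode the small proteins that are coupled to the autophagosome membrane, and together they stood at 798, 1133, 717 and 980 CPM in B10, mdx, DBA and D2-mdx. They gave 74.6% of the CPM difference between mdx and B10 (335 of 450 CPM) and 90.9% of that between D2-mdx and DBA (263 of 289 CPM). These are shares of a net difference, in which other roles went both ways. The genes of the lysosome and fusion gave 15.3% and 23.6%, and those of initiation 1.3% and -13.2%. In MuSC-like cells the shares of the ATG8 family were 69.8% and 75.3%. Over all myogenic cells the log2 ratios of the family were 0.51 (0.49 to 0.53) and 0.45 (0.43 to 0.47). In molecules per cell the family stood at 7.21, 9.49, 8.0 and 8.18 UMIs, so the gap between D2-mdx and DBA was slight on that scale, and in MuSC-like cells, which held fewer UMIs in the dystrophic libraries, at 7.17, 7.74, 8.0 and 7.09.

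Map1lc3a (chr2:155276297-155278073, + strand), which encodes LC3A, was 145, 249, 128 and 215 CPM in B10, mdx, DBA and D2-mdx. Its log2 ratio was 0.78 in mdx over B10 (0.74 to 0.83) and 0.74 in D2-mdx over DBA (0.69 to 0.80). Map1lc3b (chr8:121590361-121598760, + strand), which encodes LC3B, the form most used as an autophagosome marker, was 163, 256, 160 and 215 CPM, with ratios of 0.65 (0.60 to 0.69) and 0.42 (0.37 to 0.47). Both LC3 genes were higher in the 2 dystrophic libraries than in either control library, and the control libraries stood close together. By digital PCR of sorted satellite cells from replicate mice, the study reported Map1lc3b, Atg9a and Atg14 as lower in both dystrophic strains. For Map1lc3b that direction is opposite to that of the CPM ratios here, which are another measure, and the reason was not tested. MuSC-like cells held 4488 Map1lc3b UMIs in 2512 DBA cells and 4431 in 2864 D2-mdx cells, so not more per cell in D2-mdx. Atg9a and Atg14 were level in mdx over B10 (-0.02 and 0.01) and lower in D2-mdx over DBA (-0.23 and -0.42). In MuSC-like cells the Atg9a ratios were 0.01 and 0.02, with intervals that span 0. Gabarap (chr11:69991143-69994951, + strand) was 309, 418, 260 and 374 CPM, with ratios of 0.43 and 0.53, and Gabarapl2 was 116, 142, 104 and 130 CPM, with ratios of 0.29 and 0.33. Gabarapl1 went another way in D2-mdx: it was 64.7, 68.7, 65.1 and 46.4 CPM, 0.09 higher in mdx than in B10 and 0.49 lower on the log2 scale in D2-mdx than in DBA (-0.59 to -0.39). In MuSC-like cells it was 66.3, 93.5, 67.1 and 61.0 CPM, with ratios of 0.50 (0.41 to 0.59) and -0.14 (-0.25 to -0.03).

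**Figure D2:**
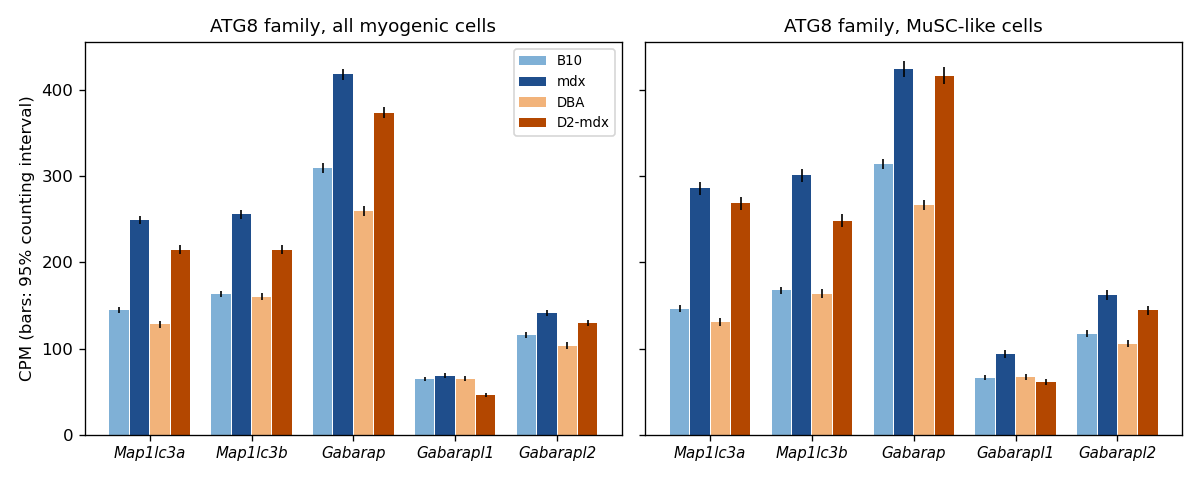
CPM of the 5 ATG8 genes in the 4 libraries over all myogenic cells (left) and MuSC-like cells only (right), 1 library per strain, with 95% counting intervals. Map1lc3a, Map1lc3b, Gabarap and Gabarapl2 are higher in mdx than in B10 and in D2-mdx than in DBA in both panels, and Gabarapl1 is lower in D2-mdx than in DBA.

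Within the states the ATG8 difference was not uniform. In MuSC-like cells the family was 0.64 higher in mdx (0.62 to 0.67) and 0.63 higher in D2-mdx (0.61 to 0.66), in differentiating cells 0.24 and 0.53, and in cycling cells 0.10 and 0.16 (0.05 to 0.28), the first with an interval that reaches 0. Map1lc3a showed this most clearly, with log2 ratios of 0.97 and 1.04 in MuSC-like cells, 0.67 and 0.77 in differentiating cells, and 0.04 and 0.03 in cycling cells, where both intervals span 0. Cells of 1 state were not alike between libraries. Summed markers of differentiating cells stood at 449, 5717, 588 and 3773 CPM in B10, mdx, DBA and D2-mdx, on 62, 252, 62 and 243 cells. Summed cycling markers stood at 287, 724, 808 and 1014 CPM in cycling cells, on 157, 367, 102 and 494 cells. The part of this in the ratios within states was not tested. Cycling cells were 3.55% of B10 and 3.77% of DBA cells but 7.62% of mdx and 11.9% of D2-mdx cells, and differentiating cells were likewise more numerous in the dystrophic libraries, so the values over all myogenic cells depend on the mix of states. Given the same mix in every library, the ratios of the 38-gene sum were 0.27 and 0.21.

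Immediate-early RNA was higher where the LC3 genes were higher among MuSC-like cells. In these cells it was higher in the dystrophic libraries, at 48362, 57661, 40149 and 57730 CPM in B10, mdx, DBA and D2-mdx. Between the MuSC-like cluster with the most of it and the cluster with the least, Map1lc3a, Map1lc3b, Gabarap, Gabarapl1, Sqstm1, Ulk1, Foxo3 and Bnip3 were higher in the first in all 4 libraries, 8 of the 36 genes tested, where 7.19% of all genes were, and 18 of the 36 were lower, where 53.5% were. In the cluster with the least immediate-early RNA, the log2 ratios of the ATG8 genes were 0.68 and 1.14 for Map1lc3a, 0.69 and 0.72 for Map1lc3b, 0.42 and 0.74 for Gabarap, 0.32 and 0.66 for Gabarapl2 and 0.19 and -0.19 for Gabarapl1. In that cluster 4 of the 5 were higher in both dystrophic libraries, and Sqstm1 differed by 0.00 in mdx and 0.31 in D2-mdx. Immediate-early RNA was 14323 CPM in that cluster and 73056 CPM in the highest one. Its level there in each library is not given here. Genes that led the lowest cluster included Gm42418, Lars2, Hbb-bs, Ryr3 and Neu1, so the 2 clusters differed in other RNA as well. The part of dissociation in the ratios was not tested.

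Among the cargo receptors, Sqstm1 and the mitophagy receptors Bnip3 and Bnip3l were examined with Nbr1. Sqstm1 (chr11:50199366-50210827, - strand), which binds ubiquitinated cargo and is itself degraded by autophagy, was 170, 176, 145 and 157 CPM in B10, mdx, DBA and D2-mdx. Its ratios were small over all myogenic cells, 0.05 and 0.11, but in MuSC-like cells it was 172, 230, 148 and 210 CPM, with ratios of 0.42 (0.36 to 0.47) and 0.50 (0.44 to 0.57). In cycling cells it was lower in the dystrophic libraries, at 126 against 91.5 CPM in B10 and mdx and 128 against 72.9 CPM in DBA and D2-mdx. Within mdx and D2-mdx, Sqstm1 was also below the MuSC-like level in other states. The log2 ratios to MuSC-like cells were -0.63 and -0.57 in DMD-enriched cells and -1.58 and -1.38 in differentiating cells. The near-equal totals thus held MuSC-like cells with a larger share of Sqstm1 beside other states with a smaller one. In molecules it was not higher in the dystrophic MuSC-like cells, which held fewer UMIs in all. The Sqstm1 counts were 6186 UMIs in 4064 B10 cells and 4414 in 3135 mdx cells. They were 4061 in 2512 DBA cells and 3741 in 2864 D2-mdx cells. The part of each state was not tested.

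Bnip3 was 10.8, 16, 13.2 and 13.3 CPM in B10, mdx, DBA and D2-mdx, higher in mdx by 0.58 (0.40 to 0.76) and by 0.02 in D2-mdx (-0.18 to 0.21). Its relative Bnip3l was 115, 146, 94.1 and 104 CPM, with ratios of 0.34 and 0.15. Nbr1, a receptor that acts with p62, was 59.4, 52.6, 50.3 and 44.3 CPM, lower by 0.18 and 0.19 on the log2 scale. In MuSC-like cells the Nbr1 ratios were -0.06 (-0.17 to 0.04) and 0.00 (-0.12 to 0.12), with intervals that span 0. No cargo receptor with at least 10 CPM was past 0.5 in both pairs.

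Of the 5 genes that start the autophagosome, 4 had a log2 ratio below 0 in D2-mdx over DBA, where 55.5% of all tested genes did. In mdx over B10 2 did, the ULK kinases, where 52.8% of all tested genes did. Ulk1, the initiating kinase, was 25.6, 22.5, 32.5 and 21.0 CPM in B10, mdx, DBA and D2-mdx, with log2 ratios of -0.19 (-0.32 to -0.06) and -0.63 (-0.77 to -0.49). Its partner kinase Ulk2 was 28.0, 24.2, 34.3 and 19.6 CPM, with ratios of -0.21 and -0.81 (-0.95 to -0.67). For both, D2-mdx was the lowest library and DBA the highest. Rb1cc1, the FIP200 scaffold of the complex, was 127, 131, 126 and 105 CPM, lower in D2-mdx alone (-0.26), and Atg13 was 8.94 to 10.1 CPM with intervals that span 0 in both pairs. In MuSC-like cells the ratios of Ulk1 were 0.08 (-0.08 to 0.23) and -0.33 (-0.49 to -0.17), and that of Rb1cc1 in D2-mdx was -0.03 (-0.11 to 0.04). The lower Ulk1 in mdx and the lower Rb1cc1 in D2-mdx were thus not seen over MuSC-like cells as a whole. Ulk1 remained lower in D2-mdx there. Ulk2 stayed at -0.63 in D2-mdx (-0.81 to -0.46). In the MuSC-like cluster with the least immediate-early RNA, however, Ulk1 was lower in mdx, at -0.37. The Rb1cc1 ratio in D2-mdx was 0.008 in that cluster.

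Atg101 (chr15:101284272-101290945, + strand), which stabilises ATG13, went the other way. It was 15.8, 23.9, 14.3 and 24.5 CPM, higher by 0.59 in mdx (0.45 to 0.74) and by 0.78 in D2-mdx (0.61 to 0.95). In MuSC-like cells these ratios were 0.50 (0.32 to 0.68) and 0.78 (0.58 to 0.98). In the MuSC-like cluster with the least immediate-early RNA they were 0.11 and 0.32.

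In the PI3-kinase group the largest difference was in Pik3r4, the VPS15 subunit that anchors the kinase. It was 12.0, 10.5, 13.2 and 6.82 CPM in B10, mdx, DBA and D2-mdx, lower by 0.96 on the log2 scale in D2-mdx than in DBA (-1.20 to -0.72) and by 0.19 in mdx than in B10. Ambra1, which recruits Beclin 1, was 11.3, 8.48, 10.3 and 6.64 CPM (-0.41 and -0.63), and Uvrag was 33.1, 26.5, 32.4 and 25 CPM (-0.32 and -0.37). The kinase gene Pik3c3 was 13.8, 13.4, 13.8 and 11.2 CPM, and Atg14, the subunit specific to autophagosome formation, was 18.4, 18.6, 17.4 and 13.0 CPM, both level between B10 and mdx and lower in D2-mdx (-0.30 and -0.42). In MuSC-like cells the D2-mdx ratios were -0.19 (-0.44 to 0.05) for Pik3c3 and -0.09 (-0.30 to 0.13) for Atg14, with intervals that span 0, and -0.85 (-1.14 to -0.56) for Pik3r4. Becn1 was 42.7 to 47.4 CPM in every library.

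Wipi1 (chr11:109573331-109611967, - strand), which binds the phosphoinositide that this kinase makes, had the largest ratio of the list in mdx. It was 36.7, 66.2, 43.1 and 68.2 CPM in B10, mdx, DBA and D2-mdx, higher by 0.85 in mdx (0.76 to 0.94) and by 0.66 in D2-mdx (0.56 to 0.76). Its paralog Wipi2 was 35.6, 40.6, 33.1 and 31.9 CPM and Atg9a, the transmembrane protein that brings membrane to the growing autophagosome, was 13.8, 13.6, 14.6 and 12.5 CPM. Wipi1 was also highest in DMD-enriched cells, at 93.2 CPM in mdx and 101 CPM in D2-mdx, against 54.4 and 58.6 CPM in the MuSC-like cells of the same libraries, where its ratios to the controls were 0.57 and 0.46.

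The conjugation genes together were level, at -0.04 and -0.03 on the log2 scale, with members on either side. Atg7, the E1-like enzyme, was 28.7, 19.8, 24.3 and 18.3 CPM in B10, mdx, DBA and D2-mdx, lower by 0.53 (-0.66 to -0.40) and 0.41 (-0.56 to -0.25). It was the 1 gene past the fold downward in mdx. In MuSC-like cells its ratios were -0.41 (-0.58 to -0.24) and -0.19 (-0.37 to -0.01). In the MuSC-like cluster with the least immediate-early RNA they were -0.13 and 0.03. Atg5, which is joined to ATG12, was 32.0, 39.3, 34.0 and 41.4 CPM (0.30 and 0.28), and Atg12 was 30.4, 33.9, 27.3 and 31.6 CPM (0.16 and 0.21). Atg16l1, which completes that complex, was 23.3, 20.9, 24.1 and 17.6 CPM (-0.16 and -0.46), and Atg3, Atg4b and Atg10 were within 0.24 of their controls.

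Of the genes of the lysosome and of fusion with it, Lamp1 (chr8:13159161-13175338, + strand) was higher in both dystrophic libraries. It was 181, 250, 195 and 269 CPM in B10, mdx, DBA and D2-mdx, with the same log2 ratio of 0.47 in both pairs (0.42 to 0.51 and 0.42 to 0.52). Unlike Map1lc3a it differed in cycling cells too, by 0.43 and 0.54, where Map1lc3b was 0.58 higher in mdx (0.34 to 0.82) and 0.09 in D2-mdx (-0.15 to 0.33). Lamp1 was between 0.33 and 0.74 higher in the dystrophic library in every state, although the interval of the D2-mdx immunomyoblasts spans 0. Both ends of this range rest on few control cells, 14 DBA immunomyoblasts for 0.33 and 16 DMD-enriched B10 cells for 0.74. Lamp2, the other abundant lysosomal membrane protein, was 209, 199, 196 and 167 CPM (-0.08 and -0.24). In MuSC-like cells its ratios were 0.09 (0.03 to 0.14) and 0.03 (-0.03 to 0.09), so it was not lower there. Rab7, the GTPase of late endosomes, was 107 to 119 CPM and Vcp, the ATPase that extracts ubiquitinated proteins, 250 to 262 CPM. Over all myogenic cells both were thus nearly the same in the 4 libraries. In MuSC-like cells the ratios of Vcp were -0.22 (-0.27 to -0.16) and -0.11 (-0.17 to -0.05). Those of Rab7 were 0.15 (0.08 to 0.23) and 0.17 (0.09 to 0.25).

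Of the transcription factors, Foxo3 was 37.5, 28.9, 29.0 and 18.4 CPM in B10, mdx, DBA and D2-mdx, with log2 ratios of -0.37 (-0.49 to -0.26) and -0.65 (-0.80 to -0.50). In MuSC-like cells these were -0.01 (-0.15 to 0.12) and -0.32 (-0.49 to -0.14). The difference in mdx was thus not seen among MuSC-like cells, and in cycling cells the ratios were -1.12 and -1.46. Tfe3 was 21.6 to 25.4 CPM, and the Tfeb counts were 9.60, 6.20, 9.52 and 6.76 CPM.

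The 2 dystrophic libraries shared the sign of their ratios about as often in the list as over all genes. Of the 36 genes counted in both pairs, 15 were higher in both and 16 lower in both, or 31 of 36 of the same sign, where 83.8% of 8158 genes tested in both pairs had the same sign. Map1lc3a, Wipi1 and Atg101, 3 of the 36, were past 0.5 upward in both and 0 downward in both. The ratio was lower in D2-mdx over DBA than in mdx over B10 for 24 of the 36. The shares of all genes past 0.5 in both pairs, or with the lower ratio in D2-mdx, are not given here. These counts are therefore not read as particular to the list. Set directly against mdx, D2-mdx had 4 of 35 genes lower by at least 0.5, where 6.06% of genes were, and 0 higher, where 5.85% were. The 4 were Foxo3 (-0.65), Pik3r4 (-0.62), Gabarapl1 (-0.57) and Atg14 (-0.51). Between the healthy libraries, 0 of 36 were past 0.5 either way in DBA over B10, where 5.14% of genes were higher and 6.13% lower, and the values ran from -0.37 for Foxo3 to 0.34 for Ulk1. In MuSC-like cells 4 of 35 were lower, with Bnip3l (-0.52) in place of Atg14, and 0 higher in D2-mdx over mdx (6.34% and 6.1% of all genes) and 0 of 36 either way in DBA over B10 (6.19% lower and 5.28% higher). These comparisons share libraries with those above and are not independent of them.

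Across states, the list took its smallest share of the UMIs in cycling cells. Set against the MuSC-like cells of the same library, the sum was lower in cycling cells by 0.39 ± 0.22 on the log2 scale (SD over the 4 libraries), in differentiating cells by 0.21 ± 0.13, in DMD-enriched cells by 0.05 ± 0.08 and in immunomyoblasts by 0.02 ± 0.05. The cycling value was -0.20 for both healthy libraries, -0.57 for mdx and -0.58 for D2-mdx, lower in all 4 and more so in the dystrophic pair. The level in cycling cells differed less between libraries than that in MuSC-like cells, at 2313, 2233, 2168 and 2027 CPM. Per cell, however, cycling cells held more molecules of the 38 genes than MuSC-like cells did. The means were 28.3, 27.9, 31.3 and 30.6 UMIs against 23.4, 20.2, 27.2 and 18.9 in B10, mdx, DBA and D2-mdx. Differentiating cells held 37.6, 35.5, 35.4 and 29.3 UMIs. DMD-enriched cells held 30.4, 40.5, 33.1 and 35.5 UMIs, on 16 cells in B10 and 12 in DBA. States are clusters of these same cells, so these values describe them and are no test.

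**Figure D3:**
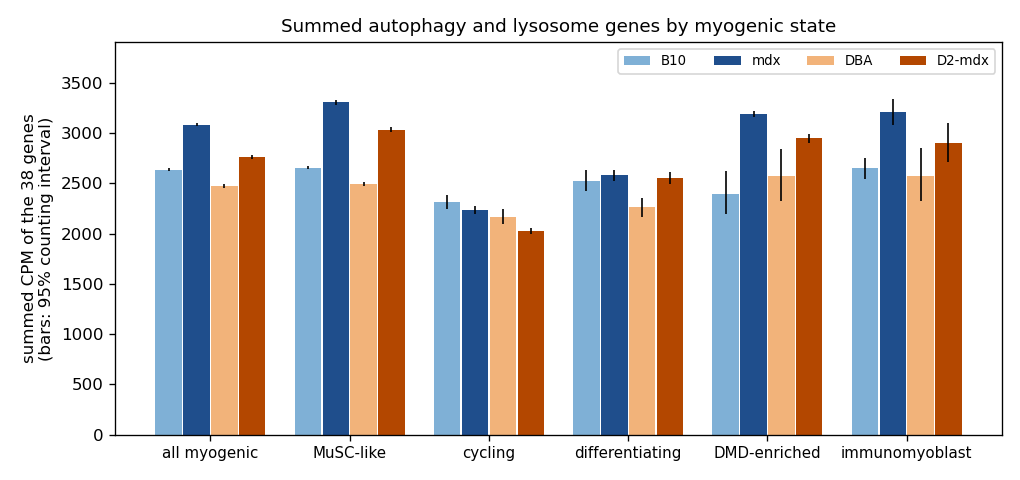
Summed CPM of the 38 genes over all myogenic cells and in each state, by library, with 95% counting intervals. In cycling cells the 4 libraries stand between 2027 and 2313 CPM, and in MuSC-like cells mdx and D2-mdx stand at 3306 and 3034 CPM, above B10 and DBA at 2654 and 2496.

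Of the genes with at least 10 CPM on average in either state, in cycling cells 24 of 35 genes were lower than in MuSC-like cells in all 4 libraries, where 31.1% of all genes were, and 3 (Vcp, Atg5 and Atg4b) were higher in all 4, where 31.5% were. Ulk1 was 26.7, 28.2, 33.3 and 26.5 CPM in MuSC-like cells of B10, mdx, DBA and D2-mdx, and 8.32, 10.5, 18.3 and 10.3 CPM in cycling cells. Each cycling value lay below every MuSC-like value. Atg14 stood at 10.9, 9.80, 10.9 and 5.23 CPM in cycling cells against 19.1, 20.7, 17.6 and 16.6 CPM, and Atg10 at 11.4, 9.37, 6.11 and 10.9 CPM against 18.6, 17.8, 16.2 and 15.3 CPM. Pik3c3 stood at 10.4, 7.41, 8.14 and 6.70 CPM against 14.0, 14.9, 14.1 and 12.3 CPM, and Atg13, on 5 to 41 UMIs per library, at 5.72, 5.66, 3.39 and 5.49 CPM against 9.34, 10.6, 10.5 and 10.9 CPM. These 5 genes, of initiation, the PI3-kinase complex and conjugation, had the widest range over states of the list, but for all except Ulk1 its upper end was in DMD-enriched cells and rested on 2 to 7 UMIs in B10 and 4 in DBA.

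Vcp went against the list. It was 248, 213, 241 and 223 CPM in MuSC-like cells of B10, mdx, DBA and D2-mdx, 330, 336, 358 and 324 CPM in cycling cells and 405, 393, 341 and 342 CPM in differentiating cells, higher in both states in all 4 libraries. In differentiating cells 12 of 35 genes were lower in all 4 libraries and 4 higher, where 27.4% and 28.1% of all genes were. The 5 ATG8 genes and Sqstm1 were among the lower ones, and the higher ones were Vcp, Atg5, Atg12 and Wipi1. Sqstm1 in differentiating cells was 121, 76.9, 93.8 and 80.4 CPM.

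As a sum the list took nearly the same share in DMD-enriched as in MuSC-like cells, but single genes differed. Of 35 genes tested in DMD-enriched cells, 7 were lower in all 4 libraries (background 12.6%) and 4 higher (16.3%). Their B10 and DBA values rest on 16 and 12 cells, so only mdx (969 cells) and D2-mdx (531 cells) are informative. There Wipi1 was higher by 0.77 and 0.79, Vcp by 0.37 and 0.23 and Gabarap by 0.28 and 0.19, and Gabarapl1 was lower by 0.80 and 0.54, Sqstm1 by 0.63 and 0.57 and Ulk1 by 0.55 and 0.45 on the log2 scale. In immunomyoblasts 3 of 35 were lower and 1, Atg5, higher in all 4 libraries (background 6.94% and 7.86%), on 14 to 120 cells per library.

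**Figure D4:**
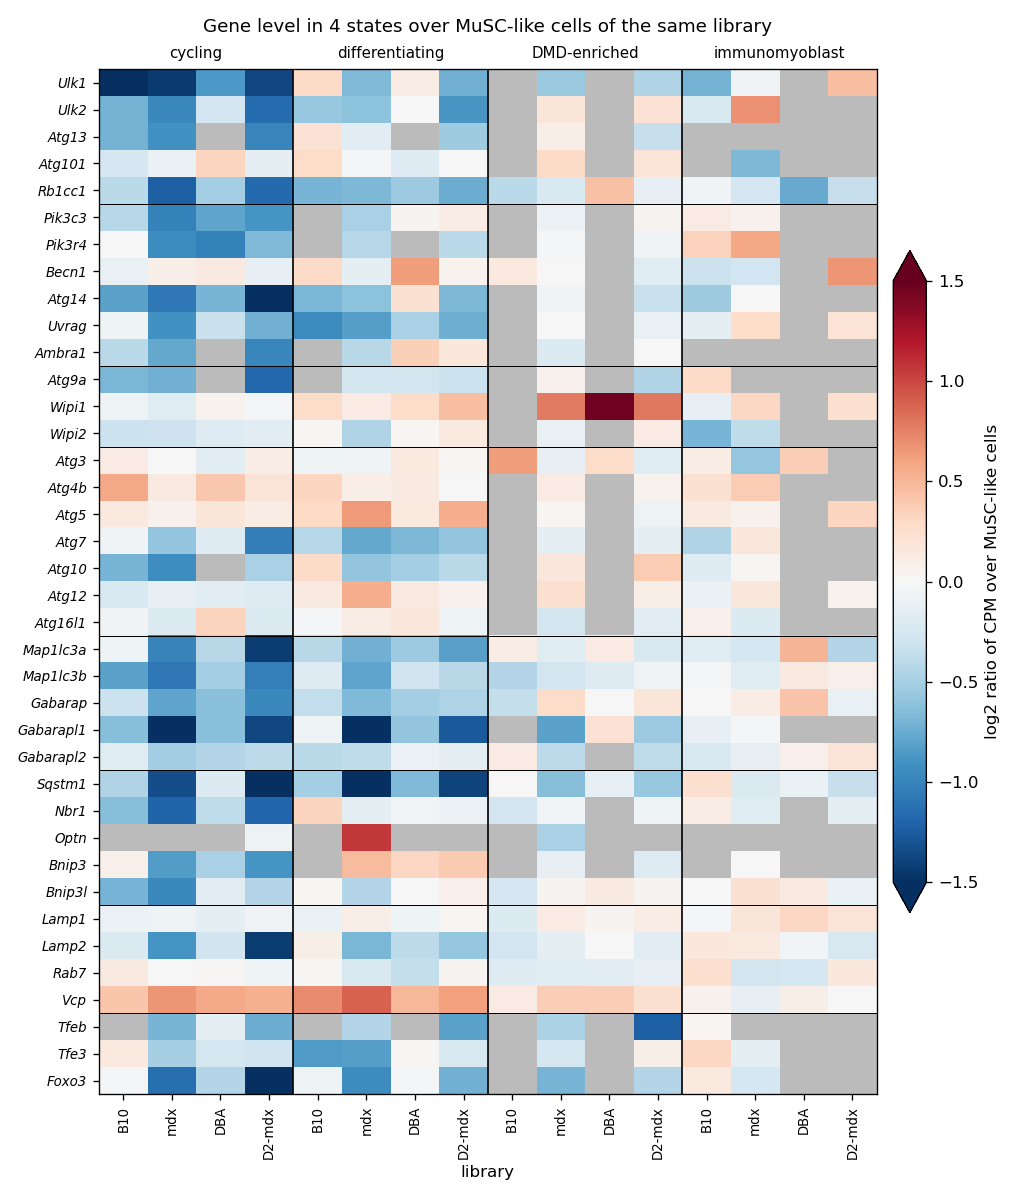
Log2 ratio of CPM of each gene in 4 states over the MuSC-like cells of the same library, with columns grouped by state and rows by role, and grey where the state held fewer than 10 UMIs of the gene. The cycling columns are mostly blue, deepest in mdx and D2-mdx, and Vcp is red in the cycling and differentiating columns of all 4 libraries.

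The rest of the pathway was read from further lists, also chosen with earlier results of these data known. Of 27 tested genes of lysosomal enzymes and membrane proteins, 9 were higher and 3 lower by at least 0.5 in mdx over B10, with a median of 0.30, and of 24 tested in D2-mdx over DBA, 7 were higher and 2 lower, with a median of 0.34. Over all genes 13.2% were higher and 17.4% lower in mdx, and 15.9% higher and 21.6% lower in D2-mdx, and the counts of the lists that follow are to be read beside the same shares. Ctsd, the protease cathepsin D, was 87.4, 144, 81.5 and 163 CPM in B10, mdx, DBA and D2-mdx (0.72 and 1.0), Ctsl, cathepsin L, 266, 452, 312 and 539 CPM (0.76 and 0.79) and Npc2, which carries cholesterol out of the lysosome, 116, 203, 103 and 192 CPM (0.80 and 0.90). Lgmn, Ctsh and Glb1 had the highest ratios in mdx (1.24, 1.18 and 1.10), at no more than 42.9 CPM. Psap, the precursor of the saposins, was lower, at 356, 229, 484 and 242 CPM (-0.64 and -1.0), as was the alpha-glucosidase gene Gaa (-0.61 and -0.46), with Neu1 low in mdx (-0.65) and Npc1 in D2-mdx (-0.71). Several of these genes are also strongly expressed by macrophages, and white blood cell markers were higher in the same libraries, as given above. Their part in this list was not tested. The E-box CACGTG was in 10 of the 23 promoters given for this list (8.09% of all genes).

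The proton pump genes of the V-ATPase were slightly higher, with medians of 0.11 and 0.21 over 14 genes, 1 past 0.5 upward in mdx (Atp6v0b, 0.55) and 0 in D2-mdx, and 0 downward in both. The next highest were Atp6v1g1 (0.42) and Atp6v1b2 (0.32) in mdx and Atp6v1b2 (0.40) and Atp6v0e (0.38) in D2-mdx, after Atp6v0b (0.41), and Atp6v0a1 was the lowest in both (-0.45 and -0.49). Of the other autophagy genes, 4 of 28 were higher and 5 lower in mdx, and 3 of 29 higher and 4 lower in D2-mdx, near or below the shares of all genes (13.2% and 17.4%, 15.9% and 21.6%). Vmp1, which acts in autophagosome formation at the endoplasmic reticulum, was 38, 115, 39.9 and 102 CPM (1.60 and 1.35), and Sh3glb1, the Beclin 1 partner endophilin B1, 444, 921, 461 and 1082 CPM (1.05 and 1.23). Nrbf2 in mdx (0.80) and Vamp8 in D2-mdx (0.78) followed. Tbk1, a kinase of cargo receptors, was 24.96, 15.4, 30.05 and 15.96 CPM (-0.70 and -0.91), with Vps39 and Atg16l2 low in mdx (-0.56 and -0.55) and Atg2b and Wdfy3 in D2-mdx (-0.99 and -0.74).

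Among regulators, 1 of 24 genes of mTORC1 and AMPK signalling was higher and 3 lower in mdx, and 0 higher and 7 lower in D2-mdx, where 13.2% and 17.4% of all genes were so in mdx and 15.9% and 21.6% in D2-mdx. Sesn3, a sestrin that restrains mTORC1, stood in opposite directions in the pairs, at 28.6, 42.4, 49.3 and 25.9 CPM (0.57 and -0.93). The list of FoxO target genes also holds the factor genes Foxo1 and Foxo4. Of 11 tested, 2 were higher and 1, Foxo1, lower in mdx and 3 higher and 4 lower in D2-mdx, few genes beside the same shares. Eif4ebp1, which encodes a translation repressor, was high in both (1.14 and 0.98), the ubiquitin ligase gene Fbxo32 in mdx (1.44, against 0.32), and Foxo1 was low in both (-1.07 and -0.70). Of the ATF4 response, 2 of 7 were higher in mdx (Phgdh 0.69 and Ddit3 0.51) and 1 of 8 in D2-mdx, Asns, with 0.531 CPM in DBA and 11.1 CPM in D2-mdx, and 0 lower. Of the list of NRF2 targets, which also holds the NRF2 gene Nfe2l2, 4 were tested, with 0 past 0.5 in either direction.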

How the data were processed

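Single-cell 3′ RNA-seq was made of sorted satellite cells, 1 library per strain from 2 pooled mice. The deposited matrices hold UMI counts per gene and barcode, which the authors made by aligning reads to mm10 with Cell Ranger 3.0.1 (per the submitters' processing notes), with 3539 to 9931 barcodes per library. Barcodes with 1000 to 5000 detected genes and at most 8% mitochondrial UMIs were kept, and the barcodes with the highest Scrublet scores (scanpy 1.11.5) were removed at a rate of 0.008 per 1000 cells, 2.7% to 5.34% of each library.

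Cells were clustered in Seurat 5.3.0 (R 4.3.3) on 2000 variable genes and 30 components, first without integration at resolution 0.1 to set the myogenic cells apart by marker genes, then, for these, after CCA integration at resolution 0.3. The study's resolution was 0.2, at which no differentiating cluster formed. The form of clustering was chosen after the clusters had been seen, on marker genes alone: other forms merged dividing with DMD-enriched cells or interferon-high myogenic with white blood cells. Cluster names rest on markers and can differ from the study's.

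Counts of the 38 genes were summed over the cells of a library or state and given as CPM of all UMIs of those cells, with exact Poisson intervals for levels and exact binomial (Clopper-Pearson) intervals for ratios (scipy 1.17.1). Both cover counting error only. Where 1 side of a ratio was at 0 it was set to 3 counts. The interval code was tested on simulated counts. CPM of 3′ counts is not scaled to gene length and was compared between libraries and states, not between genes. With 1 library per strain no p-value was computed. A gene was counted as higher or lower at a log2 ratio of at least 0.5 in size where a library of the pair had at least 10 CPM, and the same rule over all genes gave the background shares. Values in every library were given for the members measured by digital PCR in the study (Atg9a, Atg14, Map1lc3b, Sqstm1 and Gabarap), the 5 highest and 5 lowest in each disease pair and the 5 with the widest range over states. Of each other list the 3 highest and 3 lowest were eligible. The others were named for their role. The members and lists were chosen with earlier results of these data known. Gene coordinates are those of GENCODE for mm10 (GRCm38), and promoters those of RefSeq for GRCm38.p6. Alternatives changed the cell filters, clustering, cells included, library sizes (TMM of edgeR 4.0.16, size factors of DESeq2 1.42.0), minimum and fold. Leaving immediate-early genes out of the totals and the resolution of 0.2 were added after the data had been seen.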

Additional observations from a re-analysis of the deposited data

How the results depend on the processing

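No paired analysis was possible because each strain gave 1 library and no result comes from a test across samples. No replicate could be left out for the same reason. The log2 ratio of the 38-gene sum in mdx over B10, 0.23, was 0.17 with cells from 500 genes up and no upper limit, 0.32 in MuSC-like cells, 0.25 in the MuSC-like cluster with the least immediate-early RNA, 0.29 over all cells, 0.27 with the same weights of states, 0.28 with TMM library sizes, 0.28 with DESeq2 size factors, 0.26 as a mean over cells, 0.19 without the 3 genes with the most UMIs, 0.035 as the median of the genes and 0.21 without immediate-early genes in the totals (added after the data were seen). That of D2-mdx over DBA, 0.16, was under the same alternatives in the same order 0.022, 0.28, 0.33, 0.23, 0.21, 0.21, 0.24, 0.22, 0.071 and, for the median, -0.12, a change of sign, and it was 0.17 at 5% mitochondrial UMIs. That of DBA over B10, -0.09, was -0.028 over all cells, -0.071 with the same weights and -0.074 as the median. That of D2-mdx over mdx, -0.16, was -0.24 from 500 genes up, -0.12 in MuSC-like cells, -0.014 in the cluster with the least immediate-early RNA, -0.088 over all cells, -0.12 with the same weights, -0.13 with DESeq2 size factors, -0.13 as a mean over cells, -0.21 without the 3 genes and -0.18 as the median.

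The count of 1 gene lower in mdx over B10 was 2 from 500 genes up, 2 at 5% mitochondrial UMIs, 3 with no minimum, and 0 in MuSC-like cells, in the cluster with the least immediate-early RNA, with the same weights, with TMM, with DESeq2 size factors, at 50 CPM and at a log2 ratio of 1. The 5 higher there were 3 at 50 CPM and 0 at a log2 ratio of 1. The 5 lower in D2-mdx over DBA were 12 from 500 genes up and 2 in MuSC-like cells. They were 3 with the same weights, 3 as a mean over cells, 0 at 50 CPM and 0 at a log2 ratio of 1. The 4 higher were 2 from 500 genes up and 0 at a log2 ratio of 1. Except for MuSC-like cells, the shares of all genes at these settings are not given here. The median of all tested genes in D2-mdx over DBA moved too, from -0.09 with cells from 500 genes up to 0.01 with DESeq2 size factors. These counts are therefore not read as changes particular to the list. The sum in DMD-enriched over MuSC-like cells, -0.05, was 0.049 without integration and 0.040 from 500 genes up, and in immunomyoblasts, -0.02, it was 0.061, 0.045 and, without the 3 genes, -0.067. Differentiating cells were not found as a cluster at resolution 0.2. Of 720 values of single genes, 72 ratios under 10 alternatives, 652 kept their sign. The cause of these shifts was not tested.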
